A study of Mus musculus with 5 samples.

Results

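Fc receptors bind the constant part of antibodies, and macrophages use them to take up and respond to antibody-coated particles and immune complexes. The activating Fcγ receptors have no signalling tail of their own and pair with the FcRγ chain, whose ITAM (immunoreceptor tyrosine-based activation motif) is phosphorylated by Src-family kinases and then recruits the kinase SYK. The inhibitory receptor carries an ITIM instead, which recruits phosphatases that oppose the same cascade, and the neonatal Fc receptor signals through neither and carries IgG and albumin back out of the endosome.

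The 8 genes described are *Fcer1g* and *Tyrobp*, which encode the ITAM adaptors FcRγ and DAP12, the activating receptor genes *Fcgr1*, *Fcgr3* and *Fcgr4*, the inhibitory receptor gene *Fcgr2b*, the neonatal receptor gene *Fcgrt* and the kinase gene *Syk*. They were chosen by symbol, and all 8 were found among the 55487 genes of the count table.

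The study asked how the transcription factor ZEB1 acts in the macrophages of the atherosclerotic plaque, and the comparison here is between 2 libraries of plaque macrophages that keep *Zeb1* (*Zeb1*WT/*Apoe*KO, here WT) and 3 libraries of those meant to lack it (*Zeb1*∆M/*Apoe*KO, here ∆M). All mice were male, lacked *Apoe* and carried floxed *Zeb1* alleles, and ate chow for 8 weeks before 10 weeks of Western diet. The *Zeb1*∆M mice also carried Cre under the *Lyz2* (LysM) promoter, which is active in macrophages, monocytes and neutrophils and does not limit the deletion to the plaque. Viable CD45+ F4/80+ cells were sorted from digested whole aortas, per the labels, after their Fc receptors had been blocked with mouse gamma globulin, and the cells of 3 mice were mixed, so the spread between libraries is not known to be the spread between mice. The study's methods add CD11b to the gate and also describe digestion of the whole aorta, while its account of the sequencing names plaques of the aortic sinus. A lower level in such a pool can mean, among other things, fewer cells of a type or less RNA per cell, and these cannot be told apart. The libraries were made with a kit for ultra-low RNA input, and loss of transcripts during preparation was not tested.

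Total estimated counts were between 20118545 and 50649912 per library. *Zeb1* had 22 counts in ∆M replicate 1 and 0 in the other 4 libraries, so it did not check the labels. Macrophage markers were present in every library, with 8 to 10 of 11 above 3 counts and summed levels of 23059 to 40173 CPM, which are counts scaled to the same total in each library. ∆M replicate 1 stood apart, with 20919 genes with a count against 7395 to 10689 in the others and 8029 CPM of hemoglobin transcripts against at most 3.73 CPM. Its sum of macrophage markers was almost wholly *C1qb* (16351 CPM) and *Lyz2* (6631 CPM), while *Csf1r* had 25 counts, *C1qc* 257 and *Itgam* 0. The macrophage genes *C1qa* and *Cd68* had at most 10 counts in both replicate 1 libraries and at least 36172 in the other 3. Markers of other Fc receptor-bearing cells were also counted. The mast cell genes *Cpa3*, *Fcer1a*, *Mcpt4* and *Ms4a2* and the B cell genes *Cd79a* and *Cd79b* were at 0 in all 5 libraries. All 5 B cell markers summed to 224 and 563 CPM in WT replicates 1 and 2, and to 3, 637 and 1442 CPM in ∆M replicates 1 to 3. Outside ∆M replicate 1 these sums were *Ighm* alone. Dendritic cell markers summed to 431 CPM in ∆M replicate 3, from *Cd209a*, and to at most 3.98 CPM elsewhere. The 6 neutrophil markers summed to 138 to 3592 CPM. The 7 natural killer cell markers summed to 1142 CPM in WT replicate 1 and 1496 CPM in ∆M replicate 3 against at most 1.03 CPM elsewhere. In WT replicate 1 that sum was 22954 counts of *Gzma*, which cytotoxic T cells also express, and 14 of *Prf1*, with the other 5 markers at 0, whereas 4 of the 7 were above 3 counts in ∆M replicate 3.

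*Fcgr2b*, *Fcgr4*, *Fcgr3* and *Fcer1g* lie in that order on chromosome 1 (GRCm38), where the first 3 span 106 kb and the whole group spans 276 kb. *Fcgr2b* and *Fcgr3* encode closely related receptors with opposite signalling, and they are identical over stretches longer than a read. The longest identical coding stretch within 1 exon was 113 bases, at chr1:170966560-170966672 in *Fcgr2b* and chr1:171054053-171054165 in *Fcgr3*, both on the minus strand. It is shown because a 75-base read inside it, taken alone, matches both genes equally:
Fcgr2b and Fcgr3: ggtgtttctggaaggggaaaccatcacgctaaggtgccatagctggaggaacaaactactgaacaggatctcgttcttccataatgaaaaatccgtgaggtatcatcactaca
Of the 75-base windows in the transcripts, 94 were common to both genes, which is 5.42% of those of *Fcgr3* and 1.63% of those of *Fcgr2b*. The libraries were sequenced in read pairs, and these shares treat each read alone. The estimated counts divide such reads by a model, so small counts of 1 gene in a library rich in the other are uncertain.

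The promoters of the activating receptors shared a short feature. The letters GAGGAA, or TTCCTC on the other strand, are the core of the box bound by PU.1, a transcription factor of myeloid cells, and were sought on both strands in the 150 bases before each RefSeq transcription start (GRCm38.p6) after the sequences had been seen. They occurred once each in *Fcgr1*, *Fcgr3* and *Fcgr4*, and not in the same window of *Fcer1g*, *Fcgr2b*, *Fcgrt* or *Syk*, while 14.5% of the 32851 promoter windows in the RefSeq table held them. The windows of the 3 activating receptors and of the inhibitory receptor are shown 5′ to 3′ in the direction of transcription, with the box in capitals, at chr3:96293970-96294119 (minus strand), chr1:171059404-171059553 (minus strand), chr1:171018776-171018925 (plus strand) and chr1:170976072-170976221 (minus strand):
Fcgr1: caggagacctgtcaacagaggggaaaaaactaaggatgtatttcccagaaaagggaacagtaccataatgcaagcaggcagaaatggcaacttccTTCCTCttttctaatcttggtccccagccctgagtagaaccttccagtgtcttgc
Fcgr3: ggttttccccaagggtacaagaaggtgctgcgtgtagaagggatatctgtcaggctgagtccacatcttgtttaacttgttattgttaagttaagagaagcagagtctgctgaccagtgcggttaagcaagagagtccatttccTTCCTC
Fcgr4: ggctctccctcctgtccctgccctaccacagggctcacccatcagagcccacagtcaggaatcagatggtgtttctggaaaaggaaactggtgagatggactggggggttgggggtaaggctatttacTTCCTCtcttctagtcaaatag
Fcgr2b: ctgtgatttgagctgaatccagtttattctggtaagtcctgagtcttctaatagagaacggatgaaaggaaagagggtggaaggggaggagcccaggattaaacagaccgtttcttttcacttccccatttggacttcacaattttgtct
The box ended 50 bases before the start in *Fcgr1*, 17 in *Fcgr4* and 1 in *Fcgr3*, for which RefSeq lists 2 starts. These matches describe the letters in the windows and not binding.

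The ITAM adaptor transcripts were among the most abundant in every library. *Fcer1g* (chr1:171229572-171234365) had 177071 and 70682 counts in WT replicates 1 and 2, and 52377, 173857 and 214685 counts in ∆M replicates 1 to 3. *Tyrobp* (chr7:30413760-30417585) had 44836 and 55684 counts in WT replicates 1 and 2, and 229712, 131862 and 123204 counts in the ∆M replicates. Ranked by TPM (counts divided by exon length and scaled to the same total in each library), *Fcer1g* was between the 6th and the 61st gene of each library, and *Tyrobp* between the 9th and the 23rd.

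The level of *Fcer1g* did not separate the genotypes. Scaled by the TMM method, it stood at 6411 and 2051 CPM in the WT libraries and at 4322, 4065 and 4273 CPM in the ∆M libraries, so that the ∆M values all lay between the WT pair. The log2 fold change of ∆M over WT was -0.0038 with a standard error (SE) of 1.97 and an approximate 95% interval from -3.86 to 3.85, with an adjusted p of 1 by edgeR's quasi-likelihood test, and the exact two-sided permutation test gave p = 0.7. The interval is wide, and a change of the size seen for *Tyrobp* lies inside it.

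*Tyrobp* was the only one of the 8 genes whose levels did not overlap between genotypes. It stood at 1623 and 1616 CPM in the WT libraries and at 18955, 3083 and 2452 CPM in the ∆M libraries, with the highest value in the replicate that held hemoglobin transcripts. The mean was 1619.6 ± 5.31 CPM (SD, n = 2) against 8164 ± 9351 CPM (SD, n = 3), a ratio of 5.04 that was 1.71 without ∆M replicate 1. The log2 fold change was 2.33 with an SE of 2.02, beside a median of 0.78 over all genes tested, and did not pass the test (edgeR unadjusted p = 0.247, adjusted p = 1), and without ∆M replicate 1 it was 0.56 beside a median of 0.14. The exact two-sided permutation test gave p = 0.3, and with 2 against 3 libraries it cannot give less than 0.1. Every ∆M library lay above both WT libraries for 1 of the 8 genes and for 528 (6.68%) of the 7905 genes tested. Every ∆M library lay below both WT libraries for 0 of the 8 genes and for 359 of the 7905. A lack of overlap in either direction was thus not rare among all genes. The part of the cell mix in the *Tyrobp* difference was not tested.

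The ratio of *Tyrobp* to *Fcer1g* counts within a library does not depend on the scaling between libraries. It was 0.253 and 0.788 in the WT libraries and 4.39, 0.758 and 0.574 in the ∆M libraries. The counts of the 2 adaptors were therefore within a factor of 2 of each other in replicate 2 of both genotypes and in ∆M replicate 3, and *Tyrobp* had more counts than *Fcer1g* only in ∆M replicate 1. Per exon length *Tyrobp* was also the larger in WT replicate 2, with 5891 against 5707 TPM. The difference in log2 ratio between genotypes was 1.47, within the spread of the libraries (exact two-sided permutation p = 0.6).

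The adaptors also varied less than most genes. Over the 5 libraries the SD of log2 CPM was 0.59 for *Fcer1g* and 1.47 for *Tyrobp*, against a median of 3.86 over all genes tested, and only 0.253% and 3.01% of those genes varied less. Only 13.7% of the genes tested had more than 3 counts in all 5 libraries, and genes of like abundance were not compared. The genes with the most similar pattern, by the smallest root-mean-square difference of centred log2 CPM over the 5 libraries, both encode ribosomal proteins. *Rpl24* was nearest to *Fcer1g* with a difference of 0.29, and *Rps25* was nearest to *Tyrobp* with 0.11.

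**Figure D1:**
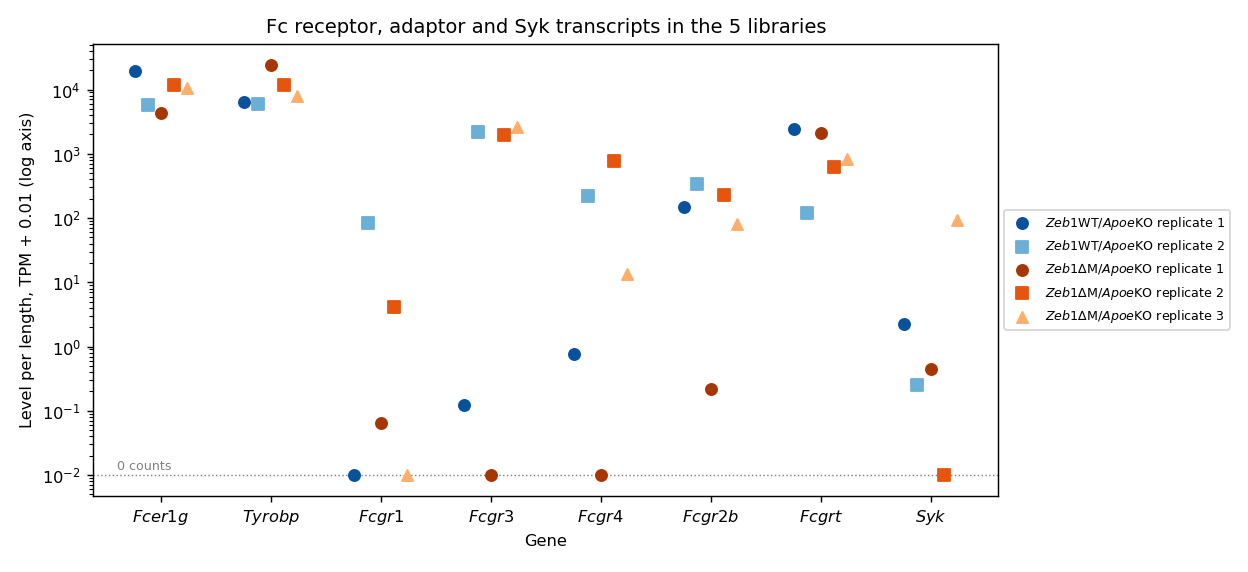
Level of each of the 8 genes in the 5 libraries as TPM plus 0.01 on a log axis, with 1 point per library and genes with 0 counts on the dotted line. *Fcer1g* and *Tyrobp* stand at 4268 TPM or more in every library, whereas *Fcgr3* is either at 1977 TPM or more or at 0.111 TPM or less.

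The Fcγ receptor genes differed far more between libraries than the adaptors, and *Fcgr3* was either abundant or nearly absent. *Fcgr3* (chr1:171051174-171064935), which encodes the low-affinity activating receptor for IgG complexes, had 2 and 52806 counts in WT replicates 1 and 2 and 0, 57914 and 105367 counts in ∆M replicates 1 to 3. These were 0.0724 and 1532 CPM against 0, 1354 and 2097 CPM. The 3 libraries that held it differed less than 2-fold, both genotypes included, and both replicate 1 libraries were at or below 2 counts. The log2 fold change was 0.59 (SE 2.85, interval -5.01 to 6.18, edgeR adjusted p = 1). Its SD of log2 CPM was 7.77, higher than that of 99.9% of the genes tested, whereas *Fcgr4* (5.31, higher than 82.2%), *Fcgr1* (4.57, higher than 64.2%) and *Fcgr2b* (3.71, higher than 47.6%) were nearer the median of all genes.

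*Fcgr4* (chr1:171018920-171029761), which encodes an activating receptor of monocytes, macrophages and neutrophils, had 10 and 3911 counts in the WT libraries and 0, 16260 and 393 counts in the ∆M libraries. It was high in replicate 2 of both genotypes, and the WT values lay inside the range of the others. The log2 fold change was 1.18 (SE 4.80, edgeR adjusted p = 1). *Fcgr1* (chr3:96282909-96293969), which encodes the high-affinity IgG receptor, had 0 and 3084 counts in the WT libraries and 2, 178 and 0 counts in the ∆M libraries. Only replicate 2 of either genotype held more than 3 counts, a level that corresponds to 0.0597 to 0.248 CPM after TMM scaling, and the log2 fold change of -4.95 (SE 5.09, edgeR adjusted p = 1) rested on WT replicate 2. Without it the WT group is 1 library with 0 counts, and the fitted value of 8.63 is no measure of size.

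The inhibitory receptor gene *Fcgr2b* (chr1:170958617-170976547) was low in 1 library and not in WT replicate 1, which nearly lacked the activating receptors. It had 8882 and 27562 counts in the WT libraries and 17, 22517 and 10585 counts in the ∆M libraries, or 322 and 799.8 CPM against 1.40, 526 and 211 CPM. ∆M replicate 1 was far below the other 4 libraries, and the groups overlapped. In that library the monocyte and macrophage gene *Cd14* was also low, with 33 counts against at least 59319 in each of the others. The log2 fold change was -1.19 (SE 3.45, interval -7.94 to 5.57, edgeR adjusted p = 1). The kit keeps no strand, and the antisense gene *Gm38204* shares 155 exonic bases with *Fcgr2b*.

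Activating and inhibitory receptors compete for the same IgG, so their balance was compared within libraries. The 4 genes summed to 8894 and 87363 counts in the WT libraries and to 19, 96869 and 116345 counts in the ∆M libraries. The share of *Fcgr2b* was 99.9% (exact 95% binomial interval 99.8 to 99.9) and 31.5% (31.2 to 31.9) in the WT libraries. It was 89.5% (66.9 to 98.7), 23.2% (23.0 to 23.5) and 9.10% (8.93 to 9.26) in the ∆M libraries, and these intervals cover counting error only. *Fcgr3* made up most of the remainder in 3 libraries, with 60.4% in WT replicate 2 and 59.8% and 90.6% in ∆M replicates 2 and 3. *Fcgr4* took 16.8% in ∆M replicate 2 and at most 4.48% elsewhere.

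Summed over *Fcgr1*, *Fcgr3* and *Fcgr4*, the activating receptors had 12 and 59801 counts in the WT libraries and 2, 74352 and 105760 counts in the ∆M libraries. The log2 ratio of activating to inhibitory counts, with 1 added to each, was -9.42 and 1.12 against -2.58, 1.72 and 3.32. The replicate 1 library of each genotype was on the inhibitory side, the one in ∆M from 19 counts in all, and the other 3 libraries were on the activating side. The difference between genotypes was 4.97 on the log2 scale (exact two-sided permutation p = 0.4), and it was -0.30 without WT replicate 1 and 1.40 without both replicate 1 libraries. *Fcer1g*, the partner the activating receptors need at the cell surface, had 14756 and 26188 counts for each activating receptor count in the replicate 1 libraries of WT and ∆M, against 1.18 to 2.34 in the other 3.

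**Figure D2:**
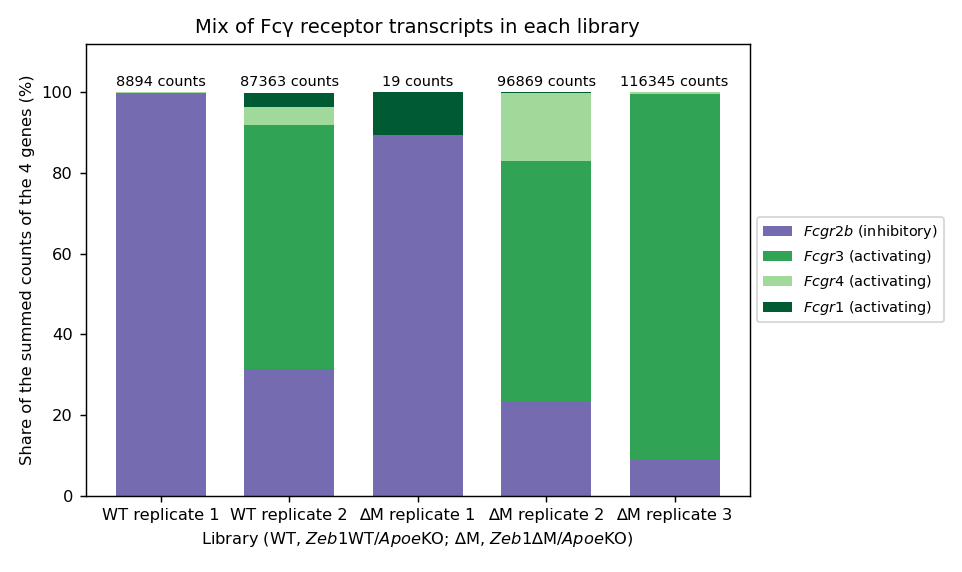
Share of the summed counts of *Fcgr2b*, *Fcgr3*, *Fcgr4* and *Fcgr1* taken by each gene in each library, in percent, with the summed counts written above each bar. *Fcgr2b* takes 99.9% and 89.5% in the replicate 1 libraries, the latter of only 19 counts, and 9.10% to 31.5% in the other 3.

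The neonatal receptor gene *Fcgrt* (chr7:45092990-45103851) followed another pattern. It had 53412 and 3566 counts in the WT libraries and 62358, 22128 and 40407 counts in the ∆M libraries, or 1934 and 103 CPM against 5146, 517 and 804 CPM. It was highest in the replicate 1 libraries, which had 12 and 2 activating receptor counts, and lowest in WT replicate 2, and the groups overlapped. The log2 fold change was 1.08 (SE 2.55, edgeR adjusted p = 1), and it was -0.05 when libraries were scaled by total counts and -0.98 without ∆M replicate 1. Its product pairs with β2-microglobulin, and *B2m* was present throughout, with 3334 and 2362 CPM against 12291, 2744 and 4818 CPM and a log2 fold change of 1.22 (SE 1.95, edgeR adjusted p = 1).

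*Syk* (chr13:52583173-52648792), which encodes the kinase that docks on the phosphorylated ITAM, was low in 4 libraries. It had 216 and 32 counts in the WT libraries and 58, 0 and 20207 counts in the ∆M libraries. ∆M replicate 3 alone carried the log2 fold change of 4.95 (SE 6.0, edgeR adjusted p = 1), which was -0.66 without it. That library also had the highest sums of natural killer cell (1496 CPM), B cell (1442 CPM) and dendritic cell (431 CPM) markers. It did not have the highest sums of macrophage, neutrophil or T cell markers. The part of the cell mix in the *Syk* level was not tested. ∆M replicate 2, with 96869 Fcγ receptor counts and 173857 *Fcer1g* counts, had no *Syk* count, and at its depth of 35771785 a count of 0 allows up to 0.0839 CPM when scaled by total counts.

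Per exon length, the order of median TPM over the 5 libraries was *Fcer1g* (10709.9), *Tyrobp* (8054), *Fcgr3* (1977), *Fcgrt* (838), *Fcgr2b* (148), *Fcgr4* (13.6), *Syk* (0.441) and *Fcgr1* (0.055). *Tyrobp* was above *Fcgr3* in 5 of 5 libraries. The order of *Fcer1g* over *Tyrobp*, of *Fcgr3* over *Fcgrt* and of *Syk* over *Fcgr1* held in 3 of 5, and that of *Fcgr4* over *Syk* in 2, so these neighbours did not differ beyond their spread. *Fcgrt* was above *Fcgr2b*, and *Fcgr2b* above *Fcgr4*, in 4 of 5.

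The receptor genes and *Syk* each had a different nearest gene by the root-mean-square difference over the 5 libraries. *Lgmn*, which encodes the lysosomal protease legumain, was nearest to *Fcgr3* with a difference of 0.52, and had 0 and 21616 counts in WT and 0, 21197 and 65544 counts in ∆M, so that it was missing from the same libraries. *Tor1a* was nearest to *Fcgr2b* (0.36), *Ptpro*, a receptor-type tyrosine phosphatase gene, to *Fcgr4* (0.59), *Oga*, which encodes O-GlcNAcase, to *Fcgr1* (0.50) and *Xpo6*, a nuclear exportin gene, to *Syk* (1.07). *Srrm4* was nearest to *Fcgrt* (0.35) with at most 22 counts in any library, against at least 3566 for *Fcgrt*.

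None of the 8 genes was called different between the genotypes by edgeR's quasi-likelihood test at an adjusted p under 0.05, where 0% of the 7905 genes tested were called. At an unadjusted p under 0.05 the count was also 0 of 8, against 86 of 7905 or 1.09% of all genes. DESeq2 called 0 of the 7 to which it gave an adjusted p, against 790 of 6519 or 12.1% of all genes, and limma-voom called 0 of the 8, against 234 of 7905 or 2.96%. The fitted log2 fold change was positive for 5 genes and negative for 3, and its median was 0.83, close to the median of 0.78 over all genes tested. That median moved to 0.13 when libraries were scaled by total counts and to 1.24 with the size factors of the relative log expression method.

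**Figure D3:**
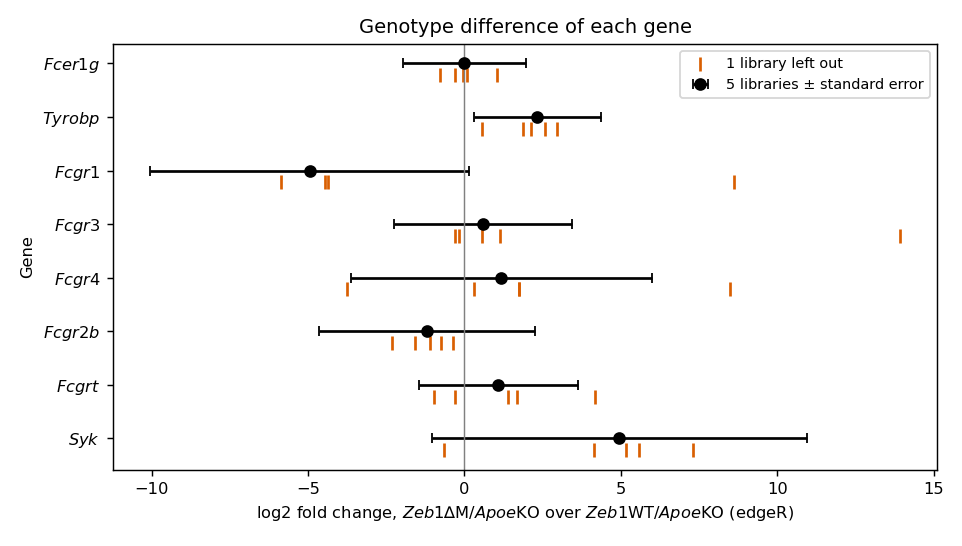
Log2 fold change of ∆M over WT for each gene from edgeR (black points, bars of 1 standard error) with the value when 1 library was left out (orange ticks). Only *Tyrobp* and *Fcgr2b* keep their sign in every such fit, and *Fcgr1* and *Fcgr3* reach 8.63 and 13.91 without WT replicate 2, where the WT group is 1 library with at most 2 counts of either.

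Detection, counted as more than 3 counts, was 6 and 8 of the 8 genes in the WT libraries and 5, 7 and 7 in the ∆M libraries. *Fcer1g*, *Tyrobp*, *Fcgr2b* and *Fcgrt* passed in all 5 libraries, which 13.7% of the genes tested did. ∆M replicate 1 held the fewest of the 8 genes although it held the largest share of all genes tested, 77.6% against 49.4% to 62.3%.

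The other genes of the pathway were taken from 5 lists, which held 84 genes of the table, of which 59 passed the filter on low counts. edgeR called 0 of the 59 at an adjusted p under 0.05 and 0 at an unadjusted p under 0.05, while DESeq2 and limma-voom each called the same 5 genes, *Sirpb1b*, *Sirpb1c*, *Clec7a*, *Lilra5* and *Fyn*. These were 14.7% of the 34 with an adjusted p by DESeq2, against 12.1% of all genes, and 8.47% of the 59 by limma-voom, against 2.96%. All 5 had 0 counts in both WT libraries.

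Of 12 other Fc receptor genes and partners, *B2m* alone was tested. The α and β chains of the mast cell IgE receptor, *Fcer1a* and *Ms4a2*, had 0 counts in all 5 libraries, so the abundant *Fcer1g* came without the other subunits of that complex. The Fc receptor-like gene *Fcrl1* had at most 9 counts, and the IgM receptor gene *Fcmr* at most 6.

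Of 22 partner receptors, which signal through FcRγ or DAP12 or carry a single-tyrosine ITAM, 16 were tested. In ∆M 10 were fitted higher and 6 lower, with a median log2 fold change of 1.69. Over all genes tested, 4811 of 7905 were fitted higher, with a median of 0.78. For 6 of the 16, 1 genotype had no library above 3 counts, so their fitted values are no measure of size. *Sirpb1b*, a DAP12 partner, had 0 and 0 counts in the WT libraries and 17, 12933 and 16138 in the ∆M libraries, which did not overlap. Against a floor of 3 counts per library it was at least 2129-fold higher, and 1553-fold without ∆M replicate 3, with an edgeR adjusted p of 1. ∆M replicate 1 alone stood 14.3-fold over that floor. *Clec7a*, the β-glucan receptor dectin-1, had 0 and 0 counts against 7, 5363 and 15746. *Sirpb1b* belongs to a family of near-identical genes, and its counts are uncertain.

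Some partner receptors were low in both replicate 1 libraries, as *Fcgr3* was, and others were not. *Cd300ld*, the most abundant, had 66 and 34457 counts against 56, 46624 and 27841, and its log2 fold change was 0.13 (SE 3.24). *Trem2*, a lipid receptor that signals through DAP12, had 10 and 1425 counts against 22, 3566 and 4346. *Clec4e*, the FcRγ partner Mincle, had the lowest fitted value of the list, -3.77 (SE 4.85), with 512 and 14199 counts against 12, 530 and 1709. The genotypes overlapped for these 3 genes. *Clec4d*, another FcRγ-coupled lectin, had 8245 and 5709 counts against 0, 20229 and 0, so that it was present in WT replicate 1, where *Fcgr3* had 2 counts, and at 0 in ∆M replicate 3, where *Fcgr3* had 105367.

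Of 9 kinases that act beside SYK, 6 were tested, with a median of -0.41. *Lyn*, the most abundant of these Src- and Tec-family genes, had 8 and 7963 counts against 9, 18859 and 8291, again with low counts in the replicate 1 libraries. *Fyn* had 0 and 0 counts against 20, 632 and 12989, which did not overlap (edgeR adjusted p = 1). It was at least 937-fold higher against the floor, a value set by ∆M replicate 3, without which the bound was 84-fold. *Tec* had 7 and 4820 counts against 0, 0 and 1426, with a fitted value of -2.89 (SE 4.93).

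Of 22 adaptors and effectors after SYK, 18 were tested, with a median of -0.26. *Cdc42*, a GTPase of phagocytic cup formation, had 20777 and 37600 counts against 0, 50299 and 8790. *Plcg2*, the phospholipase of the cascade, had 0 and 0 counts against 0, 43 and 306, and *Pik3cg*, a catalytic subunit of phosphoinositide 3-kinase, had 9 and 960 against 13, 0 and 0. Each of these 3 genes was at 0 in at least 1 ∆M library, and the genotypes overlapped.

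Of 19 ITIM receptors and phosphatases in the table, 18 were tested, with a median of 0.73. *Lilrb4a*, an ITIM receptor, had 11767 and 12721 counts against 32, 15851 and 6509, low in ∆M replicate 1 as *Fcgr2b* was. *Lair1*, a collagen receptor with ITIMs, had 15 and 25955 counts against 26, 0 and 0, and a fitted value of -9.05 (SE 5.49, edgeR unadjusted p = 0.0992). *Ptpn11*, which encodes the phosphatase SHP-2, had 0 and 0 counts against 20, 463 and 0.

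**Figure D4:**
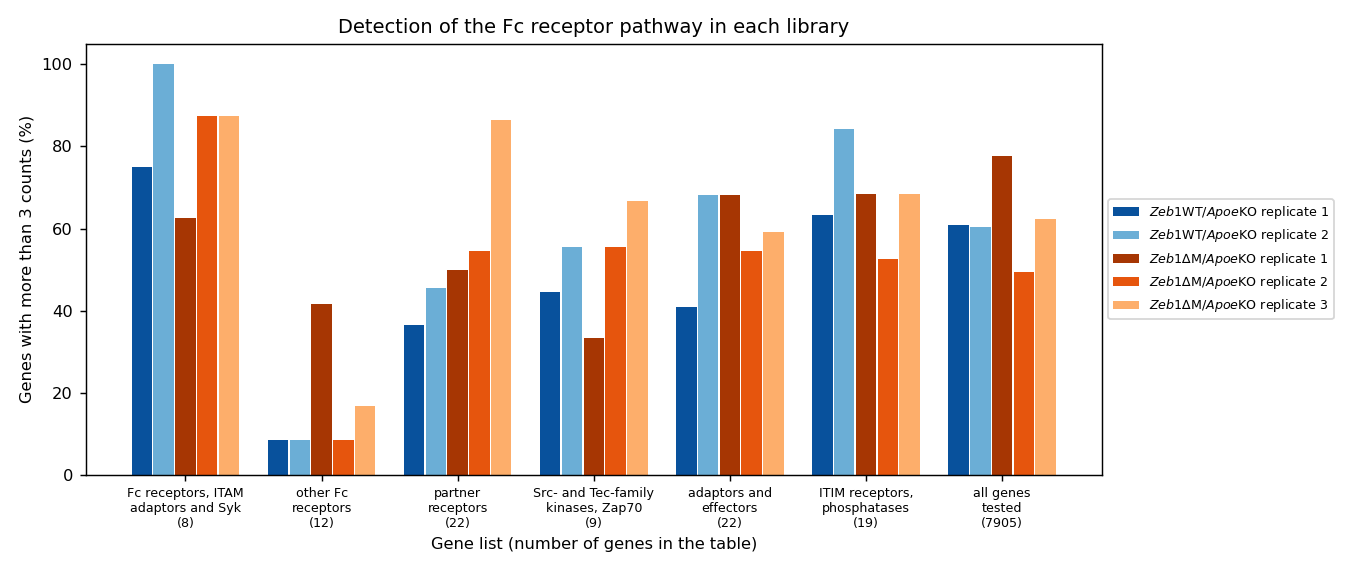
Share of genes with more than 3 counts in each library, in percent, for the 8 genes, the 5 pathway lists and all genes tested, with the number of genes under each name. The share of the 8 genes runs from 62.5% in ∆M replicate 1 to 100% in WT replicate 2, and that of the partner receptors from 36.4% to 86.4%.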

How the data were processed

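The deposited values are expected counts per gene, which the authors made with RSEM 1.3.0 after STAR 2.5.3a alignment to GRCm38 with GENCODE mouse annotation 25, from SMART-Seq v4 libraries, which keep no strand. They were rounded and scaled by TMM to CPM. Genes that passed filterByExpr (minimum 10 counts) were tested with edgeR 4.0.16 (quasi-likelihood, genotype only, Benjamini-Hochberg adjustment, threshold 0.05), in R 4.3.3. Intervals of fold changes are 1.96 SE on each side. DESeq2 1.42.0, limma-voom 3.58.1, other scalings and filters, the replicate block and leaving out libraries were alternatives. The script was tested on simulated counts. TPM used union exon lengths of GENCODE M21, found for 55227 of 55487 identifiers. Log2 CPM used a prior count of 2. Single values were compared by exact two-sided permutation over the 10 ways to choose 2 of 5 libraries. RefSeq promoter sequences matched 7 of the 8 genes.

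The 8 genes and the pathway and marker lists were chosen with earlier results of these data known. From each pathway list, the genes with the largest and the smallest fitted log2 fold change and the highest mean log2 CPM were named. *Clec7a*, *Clec4d* and *Trem2*, and the genes at few or 0 counts among the other Fc receptors, were named after their values were seen, as were the 5 genes called by DESeq2 and limma-voom.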

Additional observations from a re-analysis of the deposited data

How the results depend on the processing

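The 8 genes gave 0 calls under every alternative. Genes called rose from 0 with edgeR to 790 with DESeq2 and 234 with limma-voom, and pathway genes from 0 to 5 with each, whose cause was not tested. Leaving out 1 library gave 0 called genes in every case and log2 fold changes from -0.77 to 1.03 for *Fcer1g* (above 0 without WT replicate 1, and 0.096 without ∆M replicate 3), 0.56 to 2.96 for *Tyrobp*, -5.86 to 8.63 for *Fcgr1*, -0.29 to 13.91 for *Fcgr3* (-0.18 without ∆M replicate 3), -3.77 to 8.48 for *Fcgr4*, -2.32 to -0.37 for *Fcgr2b*, -0.98 to 4.17 for *Fcgrt* (-0.31 without WT replicate 2) and -0.66 to 7.31 for *Syk*. Without a WT replicate, the lone WT library is assumed to vary like the others, and the values of 8.63 and 13.91 are fitted against 0 and 2 counts, so they are no measure of size. The ratio of activating to inhibitory counts then ran from -0.30 to 10.24. Leaving out both replicate 1 libraries, chosen after seeing the data, gave 2 called genes, none of them in the lists, and 1.18 for *Fcer1g*. *Fcer1g* was also above 0 with limma-voom (0.29), and *Fcgrt* was -0.052 with total counts and -0.027 without a filter.

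The labels number replicates 1 and 2 in each genotype. Their differences correlated at 0.18 across genes, which with 2 pairs shows only a shared number. With the replicate block the log2 fold changes were 0.21 for *Fcer1g*, 2.24 for *Tyrobp*, -0.21 for *Fcgr1*, -1.32 for *Fcgr3*, -1.30 for *Fcgr4*, -4.20 for *Fcgr2b*, 1.87 for *Fcgrt* and -3.82 for *Syk*, with 0 genes called and 7 at an unadjusted p under 0.05.

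With 5 libraries and a common dispersion of 6.44, intervals of the fold changes span several log2 units, so that absence of a difference cannot be read from these tests. At least 10 counts in every library left 733 genes and 4 of the 8, and without ∆M replicate 2 *Fcgr1* could not be tested. DESeq2 gave *Fcgr4* no adjusted p.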
